A study of Mus musculus with 6 samples.

Results

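The matrix metalloproteinases (MMP), the ADAMTS proteases and the tissue inhibitors of metalloproteinases (TIMP) are the main secreted and membrane-bound enzymes that cut extracellular matrix, together with their dedicated inhibitors. Members were chosen by symbol, as protein-coding genes named Mmp or Adamts plus a number, or Timp1 to Timp4, a rule that uses no measured value. It was set with earlier results of these data known. The rule found 45 of 37991 gene rows, with 22 MMP, 19 ADAMTS and 4 TIMP genes. RNA was sequenced from Nestin-GFP-positive cells sorted from digested dermis with its attached subcutaneous white fat in 3-day-old mice. The 3 mutant libraries came from mice labelled Nes-GFP;Nes-Cre;PDGFRα+/[S]D842V, and the 3 control libraries from Nes-GFP mice. All mice thus carried the reporter, while the Cre recombinase and the Pdgfra allele with the constitutively active change D842V came together in the mutants and were both missing from the control label. The comparison therefore holds recombinase and allele at once, and gene counts do not tell the mutant allele from the normal one. What "[S]" before the allele name stands for was not given in the sources used here. Both the reporter and the recombinase act where Nestin regulatory sequence is active, which includes pericytes, the cells that wrap small vessels.

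MMPs are zinc-dependent proteases that are made as inactive precursors and cut collagens, laminins and other matrix and cell surface proteins. Some are secreted and some are held at the membrane, where Mmp14 activates the precursor of Mmp2 with the help of Timp2. ADAMTS proteases bind matrix through thrombospondin repeats and cut narrower sets of substrates, among them procollagens and large proteoglycans such as versican and aggrecan. TIMPs block the active sites of MMPs, and Timp3 also blocks several ADAMTS enzymes.

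The first split among the members was by place in the genome. In the GENCODE M21 annotation, 9 MMP genes lie side by side on chromosome 9 within 427 kb (Mmp13, Mmp12, Mmp1b, Mmp3, Mmp10, Mmp8, Mmp27, Mmp20 and Mmp7), with no other protein-coding gene between them. All 9 together had 91, 113 and 117 counts in mutant libraries 1 to 3 and 137, 107 and 150 counts in control libraries 1 to 3, nearly all from Mmp27 and Mmp3. The other 7 genes of the cluster summed to 4, 4 and 2 counts in mutant libraries and to 9, 1 and 2 counts in control libraries. The 250 bases before the annotated start were read for 31 of the 45 members from the RefSeq promoter table (build GRCm38.p6). In these windows both strands were searched for the AP-1 motif TGANTCA, the TATA box TATAAA and the GC box GGGCGG, and no match of a motif overlapped a match of another. AP-1 was found in 6 of 9 cluster windows and in 0 of 22 other member windows, against 6.87% of 27025 windows of all genes. The TATA box was found in 6 of 9 cluster windows and in 2 of 22 others, against 13.0% of all windows. The GC box was found in 0 of 9 cluster windows and in 16 of 22 others, against 32.9% of all windows. The median GC content was 61.2% over member windows and 52% over all windows. It ran from 37.2% to 45.6% in cluster windows and from 53.6% to 79.2% in the other member windows. Motif counts and base composition thus differed together, and the part of base composition was not tested. The motif matches describe letters in a window and are not evidence of binding.

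Windows of 3 cluster genes are printed because their windows share AP-1 and TATA letters while the genes had between 0 and 53 counts per library, and windows of 2 ADAMTS genes are printed because those genes fell in mutant cells. Each is 250 bases, 5′ to 3′ on the strand of its gene, with capitals marking a match to any of the 3 motifs on either strand.
Mmp3, chr9:7445572-7445821, plus strand: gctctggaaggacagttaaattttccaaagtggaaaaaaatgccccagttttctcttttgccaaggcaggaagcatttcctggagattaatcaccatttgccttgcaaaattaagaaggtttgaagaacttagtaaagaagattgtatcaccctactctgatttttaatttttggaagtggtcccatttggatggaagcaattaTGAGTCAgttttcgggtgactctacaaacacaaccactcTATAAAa
Mmp10, chr9:7502092-7502341, plus strand: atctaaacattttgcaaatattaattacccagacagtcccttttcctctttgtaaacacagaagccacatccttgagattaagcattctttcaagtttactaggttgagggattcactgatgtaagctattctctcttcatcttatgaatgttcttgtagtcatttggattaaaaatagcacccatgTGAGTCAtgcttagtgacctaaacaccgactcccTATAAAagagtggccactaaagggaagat
Mmp13, chr9:7272264-7272513, plus strand: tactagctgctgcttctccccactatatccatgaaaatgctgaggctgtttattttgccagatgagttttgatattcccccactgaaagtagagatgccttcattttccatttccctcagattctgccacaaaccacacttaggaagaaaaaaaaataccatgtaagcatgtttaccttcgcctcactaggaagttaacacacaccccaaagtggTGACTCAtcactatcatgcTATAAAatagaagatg
Adamts17, chr7:66839485-66839734, plus strand: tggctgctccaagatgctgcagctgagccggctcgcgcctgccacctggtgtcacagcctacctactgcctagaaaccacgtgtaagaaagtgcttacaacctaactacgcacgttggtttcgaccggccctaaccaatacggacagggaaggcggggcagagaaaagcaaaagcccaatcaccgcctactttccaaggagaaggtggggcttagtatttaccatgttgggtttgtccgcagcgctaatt
Adamts14, chr10:61273420-61273669, minus strand: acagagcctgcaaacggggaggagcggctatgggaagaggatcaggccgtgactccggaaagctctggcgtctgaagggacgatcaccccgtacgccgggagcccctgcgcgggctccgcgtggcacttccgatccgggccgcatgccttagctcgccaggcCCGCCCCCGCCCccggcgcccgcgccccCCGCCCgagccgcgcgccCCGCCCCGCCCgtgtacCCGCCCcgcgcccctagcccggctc
In Mmp3, Mmp10 and Mmp13 an AP-1 match precedes a TATA match on the way to the start. The Adamts17 window holds no match, and the Adamts14 window holds 6 GC boxes within the 88 bases nearest the start. Of 6 called members with a window, 4 held a GC box, 0 held AP-1 and 0 held a TATA box. Mmp2, Mmp9, Mmp16, Mmp17, Mmp19, Adamts4, Adamts5, Adamts6, Adamts7, Adamts8, Adamts10, Adamts15, Adamts16 and Adamts19 had no window in the table.

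Levels per length were taken as CPM (counts scaled to a common library total) per kilobase of merged exon, with totals scaled by TMM. The sorted cells made mainly Mmp2, Mmp14, Adamts1 and Timp2. Mmp2, a secreted gelatinase, averaged 281 ± 20.2 CPM per kb in mutant libraries and 283 ± 22.2 CPM per kb in control libraries (SD, n = 3 each, as throughout). Mmp14, its membrane-bound activator, averaged 157 ± 11.1 CPM per kb in mutant libraries and 177 ± 1.06 CPM per kb in control libraries. Mmp2 and Mmp14 together held 81.1% to 81.6% of the summed MMP level in mutant libraries and 81.0% to 81.9% in control libraries. Mmp23, Mmp11 and Mmp19 followed, between 18.7 and 36.2 CPM per kb in mutant libraries. Adamts1, a protease of versican and aggrecan, averaged 120.7 ± 6.7 CPM per kb in mutant libraries and 122 ± 18.5 CPM per kb in control libraries. It held 29.2% to 35.5% of the ADAMTS sum in mutant libraries and 28.4% to 33.4% in control libraries. Timp2 held 80.5% to 84.4% of the TIMP sum in mutant libraries and 83.0% to 84.6% in control libraries. The levels are bulk averages, in which fewer cells of a type and less RNA per cell cannot be told apart.

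**Figure D1:**
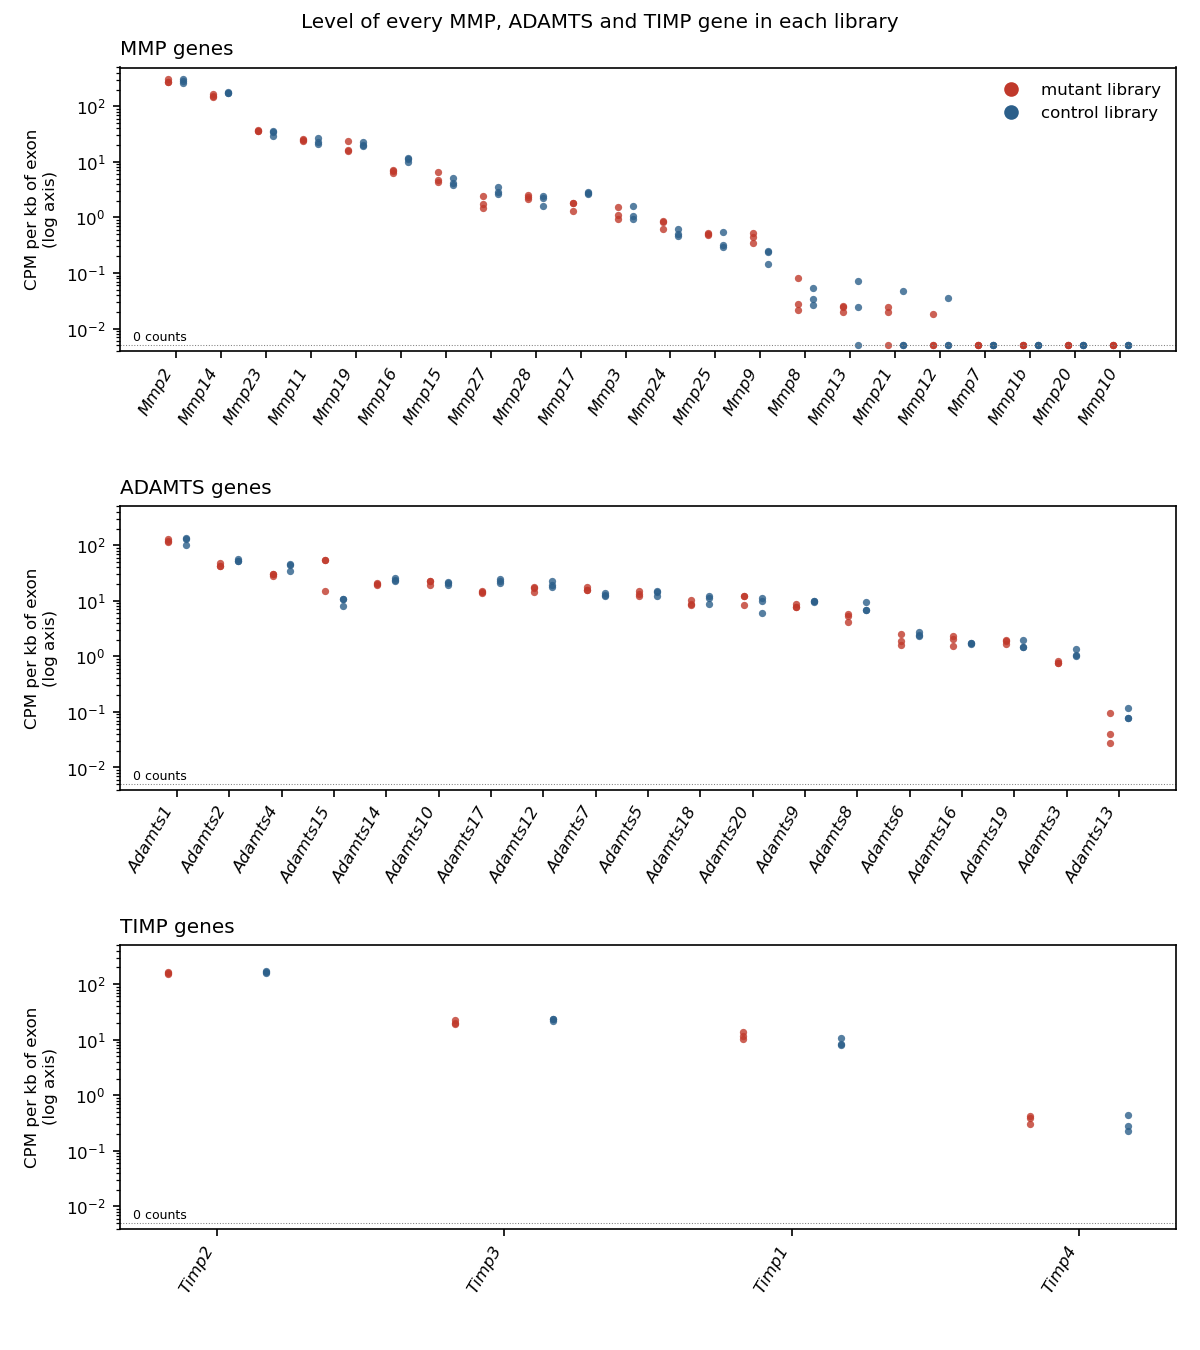
Level of each of the 45 genes in each library, in CPM per kb of exon on a log axis, mutant libraries (red) left of control libraries (blue), genes ordered by level within a family and libraries with 0 counts drawn on the dotted line. Mmp2, Mmp14, Adamts1 and Timp2 stand highest, and Mmp7, Mmp1b, Mmp20 and Mmp10 lie on the dotted line in all 6 libraries.

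Of the 45 members 36 passed the filter on low counts, namely 14 MMP, 18 ADAMTS and 4 TIMP genes. By edgeR, 12 of the 36 were called at an adjusted p under 0.05, which is 33.3%, against 17.8% of all 15035 genes tested. Lower genes were the larger part, with 10 of 36 lower (27.8%, against 9.13% of all genes) and 2 of 36 higher (5.56%, against 8.63% of all genes). Among ADAMTS genes 7 of 18 fell and 1 rose, with a median log2 fold change (mutant over control) of -0.24. Among MMP genes 3 of 14 fell and 1 rose, with a median of 0.05. Of 4 TIMP genes none was called by edgeR, DESeq2 or limma-voom, 1 had an unadjusted edgeR p under 0.05, and the median was 0.10. Over all tested genes the median was 0.01. Mutant and control libraries did not overlap in 15 of 36 members, with mutants above controls in 3 (against 19.2% of all genes) and below in 12 (against 18.6% of all genes). By family these were 5 of 14 MMP (35.7%), 10 of 18 ADAMTS (55.6%) and 0 of 4 TIMP genes. Over all 15035 tested genes, 5674 had no overlap in either direction. That share is above the MMP share, and below the shares of all 36 members (41.7%) and of ADAMTS genes. Members that fell numbered 4 when control replicate 2 or 3 was left out and 6 when mutant replicate 2 or 3 was, settings in which fewer genes were called over the whole table as well. The families were not tested against each other.

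**Figure D2:**
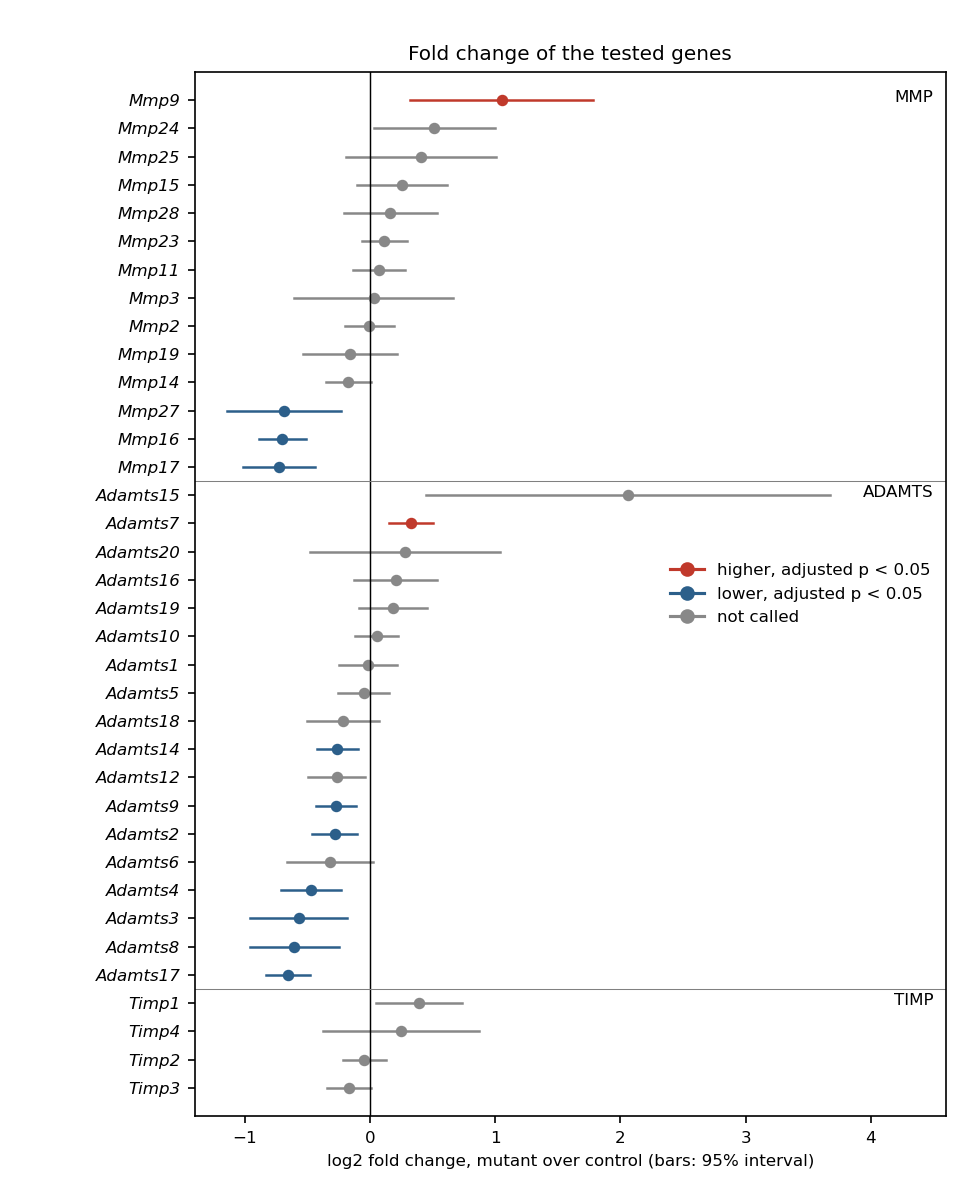
Log2 fold change, mutant over control, of the 36 tested genes with 95% intervals, ordered within each family, with called genes in red (higher) or blue (lower) and the rest in grey. Most called genes lie between -0.73 and -0.26, while Adamts15 at 2.06 has the widest interval and is grey.

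Among the membrane-bound MMPs, Mmp16 and Mmp17 fell and the far more abundant Mmp14 was not called. Mmp16, a transmembrane MMP that can activate Mmp2, had 61.0, 55.2 and 59.3 CPM in mutant libraries, against 100.9, 99.6 and 85.1 CPM in control libraries. Every mutant library was below every control library. Its log2 fold change was -0.70 (95% interval -0.89 to -0.52, edgeR adjusted p = 0.00041). Mmp17, which is held at the membrane by a lipid (GPI) anchor, had 11.9, 8.78 and 11.9 CPM in mutant libraries, against 17.5, 17.96 and 18.6 CPM in control libraries. Here too the groups did not overlap, and the log2 fold change was -0.73 (-1.02 to -0.44, edgeR adjusted p = 0.00397). Both genes were called in all 15 alternative analyses. Mmp14 had 1006, 873 and 932 CPM in mutant libraries, against 1053, 1055 and 1065 CPM in control libraries. Its groups did not overlap either, and the control libraries were much closer to each other than the mutant ones. The log2 fold change of Mmp14 was -0.17 (-0.35 to 0.00, edgeR adjusted p = 0.163). Mmp24, a transmembrane MMP known from neural tissue, had 4.03, 2.93 and 3.80 CPM in mutant libraries and 2.95, 2.18 and 2.37 CPM in control libraries, which overlap (0.51, edgeR adjusted p = 0.131). Mmp15 (0.25, 28.1 ± 5.89 CPM in mutant and 23.6 ± 3.74 CPM in control libraries) and the GPI-anchored Mmp25 (0.41, 2.67 ± 0.113 CPM in mutant and 2.05 ± 0.774 CPM in control libraries) were not called by edgeR (adjusted p = 0.309 for Mmp15 and 0.331 for Mmp25).

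The gelatinases differed in level and in outcome. Mmp2 had 1027, 910 and 908 CPM in mutant libraries and 1027, 954 and 877 CPM in control libraries. These values interleave, with a log2 fold change of -0.01 (-0.20 to 0.19, edgeR adjusted p = 0.97) whose sign turns with the scaling. Mmp9, the other gelatinase and a product of neutrophils, macrophages and osteoclasts, was rare, with 18, 24 and 35 counts in mutant libraries, against 8, 10 and 14 counts in control libraries. In CPM these were 1.21, 1.56 and 1.85 in mutant libraries, against 0.512, 0.839 and 0.896 in control libraries, with no overlap. The log2 fold change was 1.05 (0.32 to 1.78, edgeR adjusted p = 0.0484). Mmp9 passed the filter level of 0.649 CPM in 3 mutant and 2 control libraries. The call was lost in 11 of 15 alternatives, among them each of the 6 with 1 library left out (edgeR adjusted p between 0.0537 and 0.178), DESeq2 and limma-voom. Summed neutrophil markers were 1.68 to 2.60 CPM in mutant libraries and 1.17 to 2.43 CPM in control libraries, and none of the 10 passed the filter. Ly6g and Mpo were at 0 in all 6 libraries. S100a8, S100a9 and Ngp were higher in every mutant library than in every control library in CPM, and Camp was lower in every mutant library. S100a8 had 6, 7 and 10 counts in mutant libraries and 6, 1 and 3 counts in control libraries. Ngp had 1, 6 and 2 counts in mutant libraries and 1, 0 and 1 counts in control libraries. In S100a8 and Ngp, mutant replicate 1 and control replicate 1 had equal counts and were parted only by the scaling to CPM. The same held for replicate 2 in Camp. S100a9 had 7, 9 and 5 counts in mutant libraries, against 1, 0 and 4 counts in control libraries, and Camp had 1, 5 and 2 counts in mutant libraries, against 6, 5 and 11 counts in control libraries. Macrophage markers summed to 307 to 381 CPM in mutant libraries and 214 to 419 CPM in control libraries, with 0 of 11 called. Control replicate 1 held the highest macrophage sum, and the other control libraries had 214 and 299.9 CPM. Without control replicate 1, edgeR called 4 of these markers higher, and limma-voom called 1 on all 6 libraries. Osteoclast markers summed to 5.50 to 7.71 CPM in mutant libraries and 4.35 to 6.40 CPM in control libraries, with 0 of 2 tested genes called. The part of these cells in the Mmp9 result was not tested.

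Of the other MMPs tested Mmp27 fell and the rest were not called. Mmp27, a member of the chromosome 9 cluster, had 3.83, 5.40 and 3.27 CPM in mutant libraries, against 6.28, 5.96 and 7.81 CPM in control libraries. The groups did not overlap, although mutant replicate 2 and control replicate 2 came close. Its log2 fold change was -0.69 (-1.15 to -0.24, edgeR adjusted p = 0.039). The call was lost without mutant replicate 1 (adjusted p = 0.105) or 3 (0.144), and likewise without control replicate 2 (0.0588) or 3 (0.151). Its neighbour Mmp3, a stromelysin that can activate other MMPs, had 2.01, 1.69 and 2.80 CPM in mutant libraries and 1.92, 2.94 and 1.66 CPM in control libraries (0.03, interval -0.61 to 0.66). Mmp11, a stromelysin that furin activates inside the cell, had 69.5 ± 2.23 CPM in mutant and 66.1 ± 8.99 CPM in control libraries (0.07). Mmp23 had 84.8 ± 1.88 CPM in mutant and 78.4 ± 7.46 CPM in control libraries (0.11). Mmp19 had 84.6, 55.5 and 57.9 CPM in mutant libraries and 80.7, 68.1 and 72.6 CPM in control libraries (-0.16, edgeR adjusted p = 0.526). Mutant replicate 1 was the highest of the 6, and without it Mmp19 was called lower (adjusted p = 0.025). Mmp28 had 9.06 ± 0.752 CPM in mutant and 8.13 ± 1.79 CPM in control libraries (0.16). None of Mmp2, Mmp3, Mmp11, Mmp19, Mmp23 and Mmp28 was called, and their intervals span 0.

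The 3 collagenases, Mmp13, Mmp8 and Mmp1b, were among the 9 members left untested. Mmp1b, Mmp7, Mmp10 and Mmp20 had 0 counts in all 6 libraries. A count of 0 allows up to 3 counts, which is 0.16 to 0.252 CPM per library, a limit that covers counting error only. Mmp13 had 1 count in each mutant library and 3, 0 and 1 counts in control libraries. Mmp8 had 1, 3 and 1 counts in mutant libraries and 2, 1 and 1 counts in control libraries. Mmp12, the macrophage elastase, had 2, 0 and 0 counts in mutant libraries and 4, 0 and 0 counts in control libraries. Mmp21 had 0, 1 and 1 counts in mutant libraries and 0, 0 and 2 counts in control libraries. Adamts13, which cuts von Willebrand factor, had 2, 3 and 9 counts in mutant libraries and 6, 7 and 6 counts in control libraries. At these counts no difference between the groups was detectable.

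All 3 procollagen N-proteinases fell, where 7 of 18 tested ADAMTS genes (38.9%) and 9.13% of all tested genes did. The N-proteinases remove the amino-terminal propeptide of fibrillar procollagens before fibrils form. Adamts2, the most abundant of them, had 441, 393 and 396 CPM in mutant libraries, against 531, 488 and 477 CPM in control libraries. The groups did not overlap, and the log2 fold change was -0.28 (-0.46 to -0.11, edgeR adjusted p = 0.0319). Adamts14 had 103.8, 109 and 99.8 CPM in mutant libraries, against 121, 135 and 119 CPM in control libraries. Again every mutant library was lower, by a log2 fold change of -0.26 (-0.43 to -0.10, edgeR adjusted p = 0.0343). Adamts3, which also takes part in the processing of the lymphatic growth factor VEGF-C, was the least abundant, with 4.43, 4.10 and 4.07 CPM in mutant libraries, against 5.83, 5.45 and 7.36 CPM in control libraries. Its log2 fold change was -0.57 (-0.96 to -0.19, edgeR adjusted p = 0.0432). None of these calls held throughout when 1 library was left out. Adamts2 lost its call without mutant replicate 2 (adjusted p = 0.0939) or 3 (0.123), and likewise without control replicate 1 (0.0539), 2 (0.0743) or 3 (0.0522). Adamts14 lost it without mutant replicate 1 (0.077) or 3 (0.137), as well as without control replicate 2 (0.144). Adamts3 lost it without any library but control replicate 1 (0.0552 to 0.167), with upper quartile scaling (0.0532), with the replicate block (0.0576) and by DESeq2 (0.0936).

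Of 7 proteoglycanases 3 fell, where 7 of 18 tested ADAMTS genes (38.9%) and 9.13% of all tested genes did. Adamts4, an aggrecan-cutting enzyme, had 148, 132 and 146 CPM in mutant libraries, against 162, 222 and 209 CPM in control libraries. All mutant libraries were lower, though control replicate 1 stood nearer to them than to the other controls. Its log2 fold change was -0.47 (-0.71 to -0.23, edgeR adjusted p = 0.0143), and the call was lost without control replicate 2 (0.0508) or 3 (0.0672). Adamts8 had 24.4, 18.9 and 26.4 CPM in mutant libraries, against 43.2, 31.2 and 31.6 CPM in control libraries. The groups did not overlap (-0.61, interval -0.96 to -0.25, edgeR adjusted p = 0.0296), and the call was lost without mutant replicate 1 (0.0672) or 2 (0.0525), and also without control replicate 3 (0.0532). Adamts9, which cuts versican and aggrecan, had 130, 114 and 118 CPM in mutant libraries, against 146, 143 and 149 CPM in control libraries. The control libraries lay within a narrow band above all mutant ones (-0.28, interval -0.44 to -0.12, edgeR adjusted p = 0.0236). That call was lost without mutant replicate 2 (0.0787) or 3 (0.0926), and also without control replicate 2 (0.0605) or 3 (0.0663). Adamts1, the most abundant ADAMTS gene, had 674, 643 and 603 CPM in mutant libraries and 536, 718 and 691 CPM in control libraries. These overlap, and the log2 fold change of -0.02 (-0.25 to 0.22, edgeR adjusted p = 0.93) changes sign with upper quartile scaling. Adamts5, another aggrecan-cutting enzyme, had 145 ± 14.1 CPM in mutant and 150.1 ± 15.6 CPM in control libraries (-0.05, interval -0.26 to 0.15). Adamts20, known for the belted coat colour mutation of mice, had 97.5 ± 20.1 CPM in mutant and 80.9 ± 24.4 CPM in control libraries (0.27, interval -0.48 to 1.03).

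Adamts15 held the largest positive fold change of the 36 tested members and was not called. This protease of versican and aggrecan had 155, 556 and 570 CPM in mutant libraries, against 82.5, 114 and 111 CPM in control libraries. Every mutant library was above every control library, but mutant replicate 1 was much nearer to the controls than to the other mutants. The log2 fold change was 2.06 (0.45 to 3.67, edgeR adjusted p = 0.0926). Without mutant replicate 1 it was 2.45, with an edgeR adjusted p of 2.22e-05. Without any other single library the adjusted p lay between 0.206 and 0.230. DESeq2 (adjusted p = 0.00425), limma-voom (0.0138) and edgeR without robust fitting (0.0075) called it higher. Per kb it averaged 41.2 ± 22.7 CPM in mutant libraries and 9.88 ± 1.66 CPM in control libraries. Adamts15 and Adamts8 are neighbours on chromosome 9 within 65 kb, with no other protein-coding gene between them, and their values lay in opposite directions.

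Adamts17 fell most clearly among the remaining ADAMTS genes. Adamts17, mutated in a human short-stature and eye syndrome of the Weill-Marchesani type, had 114, 115 and 109 CPM in mutant libraries, against 177, 161 and 194 CPM in control libraries. The groups were far apart, and the log2 fold change was -0.65 (-0.83 to -0.48, edgeR adjusted p = 0.000433). It was called in all 15 alternatives. Adamts7, which cuts cartilage oligomeric matrix protein, was the 1 ADAMTS gene that rose. It had 98.9, 99.4 and 112 CPM in mutant libraries, against 77.4, 88.6 and 81.0 CPM in control libraries. Every mutant library was higher (0.33, interval 0.15 to 0.51, edgeR adjusted p = 0.0169), and the call was lost without mutant replicate 3 (0.0848) or control replicate 3 (0.0573). Its closest relative Adamts12, which cuts the same protein, had 195, 157 and 189 CPM in mutant libraries, against 246, 195 and 210 CPM in control libraries. All mutant libraries were lower, with a log2 fold change of -0.27 (-0.50 to -0.04, edgeR adjusted p = 0.0979), and Adamts12 was called with no filter on low counts (0.0147). Adamts10, a partner of fibrillin that is also mutated in Weill-Marchesani syndrome in humans, had 177 ± 13.6 CPM in mutant and 170.4 ± 7.78 CPM in control libraries (0.05, interval -0.12 to 0.22). Adamts6, Adamts16, Adamts18 and Adamts19 had log2 fold changes of -0.32, 0.20, -0.22 and 0.18, and none was called by edgeR (adjusted p between 0.183 and 0.380). With mutant replicate 3 left out Adamts6 fell by 0.53 (adjusted p = 0.0344), and with control replicate 1 left out Adamts18 fell by 0.35 on the log2 scale (0.0232).

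**Figure D3:**
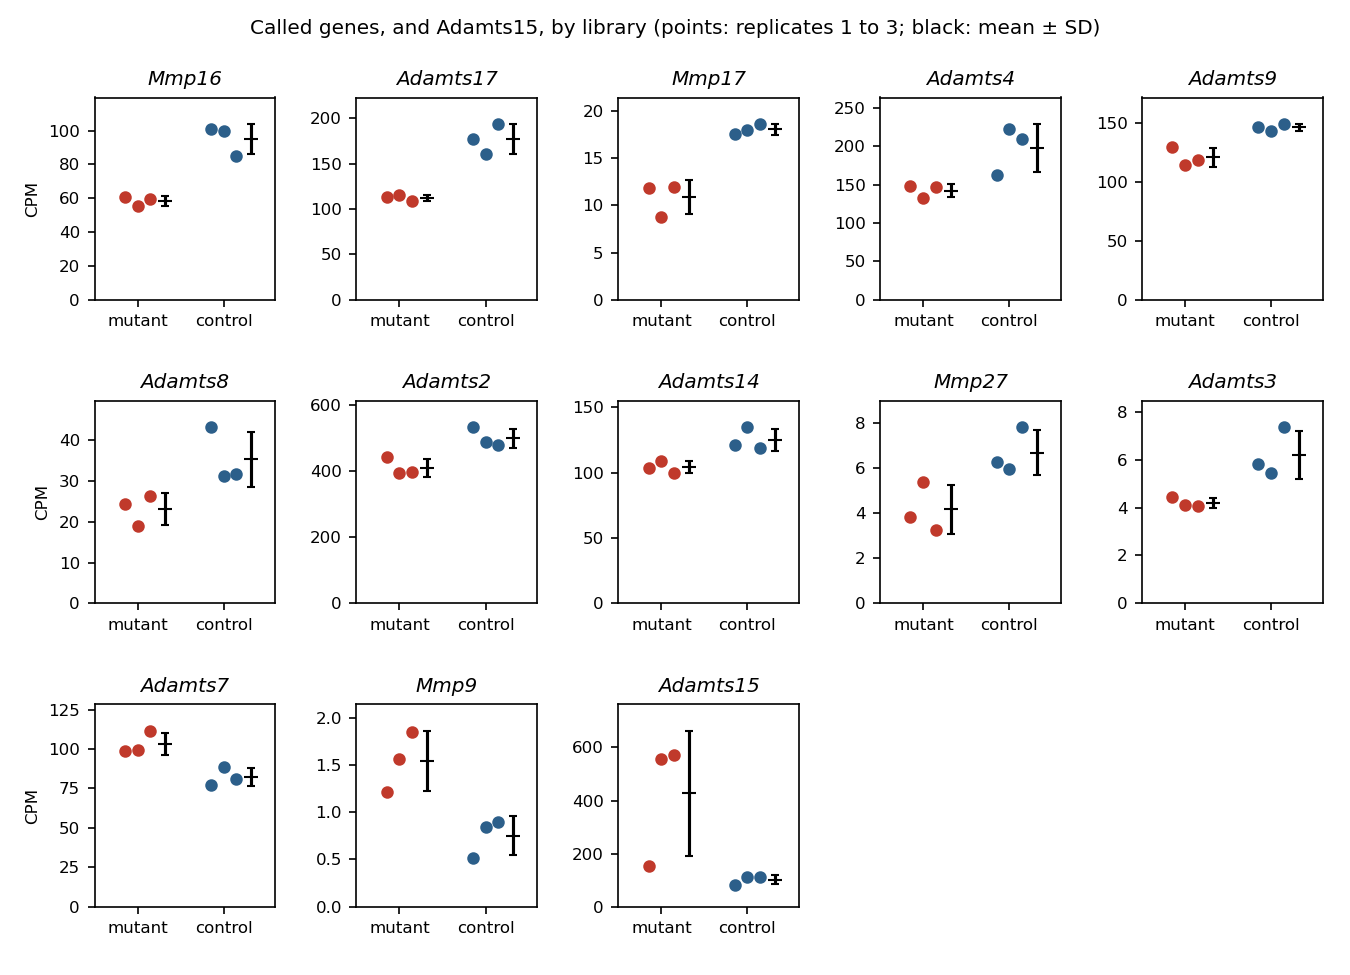
CPM in each library for the 12 called genes and for Adamts15, mutant libraries left of control libraries, with mean ± SD in black and axes from 0. In every panel the groups do not overlap, and in Adamts15 mutant replicate 1 lies near the control libraries.

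No TIMP gene was called, and all 4 had overlapping groups. Timp1, a TIMP that many signals induce, had 10.3, 9.04 and 11.98 CPM in mutant libraries and 9.35, 7.13 and 7.36 CPM in control libraries. Only control replicate 1 reached into the mutant range. The log2 fold change was 0.39 (0.05 to 0.74, edgeR adjusted p = 0.107), and without control replicate 1 it was called (0.52, adjusted p = 0.0477). Timp2 had 655, 626 and 583 CPM in mutant libraries and 663, 641 and 620 CPM in control libraries (-0.05, interval -0.22 to 0.13, edgeR adjusted p = 0.73). Timp3, which binds to matrix, had 161, 156 and 182 CPM in mutant libraries and 189, 176 and 196 CPM in control libraries (-0.17, interval -0.34 to 0.01, edgeR adjusted p = 0.172). Timp4 had 1.81, 2.34 and 2.48 CPM in mutant libraries and 2.56, 1.68 and 1.34 CPM in control libraries (0.25, interval -0.38 to 0.87, edgeR adjusted p = 0.588). Timp3 and Timp4 lie within introns of the synapsin genes Syn3 and Syn2, and both pairs share exon bases in the annotation.

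Summed over a family, the levels of the groups overlapped. The MMP sum was 539 ± 35.6 CPM per kb in mutant libraries and 564 ± 29.2 CPM per kb in control libraries. The ADAMTS sum was 377 ± 17.3 CPM per kb in mutant libraries and 385 ± 26.4 CPM per kb in control libraries. The TIMP sum was 192 ± 7.14 CPM per kb in mutant libraries and 197 ± 6.72 CPM per kb in control libraries. The summed MMP and ADAMTS level was 4.78 ± 0.124 times the TIMP sum in mutant libraries and 4.83 ± 0.165 times in control libraries. Within the ADAMTS sum Adamts2 held 43.9 ± 2.89 CPM per kb in mutant and 53.5 ± 3.06 CPM per kb in control libraries, and Adamts4 held 29.6 ± 1.84 CPM per kb in mutant and 41.1 ± 6.53 CPM per kb in control libraries. Adamts15 lay the other way, with 41.2 ± 22.7 CPM per kb in mutant and 9.88 ± 1.66 CPM per kb in control libraries. The overlap of the ADAMTS sums includes these higher mutant values, and no sum without Adamts15 was taken. It therefore does not show that the other ADAMTS genes summed to the same level in both groups. No test was run on these sums.

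**Figure D4:**
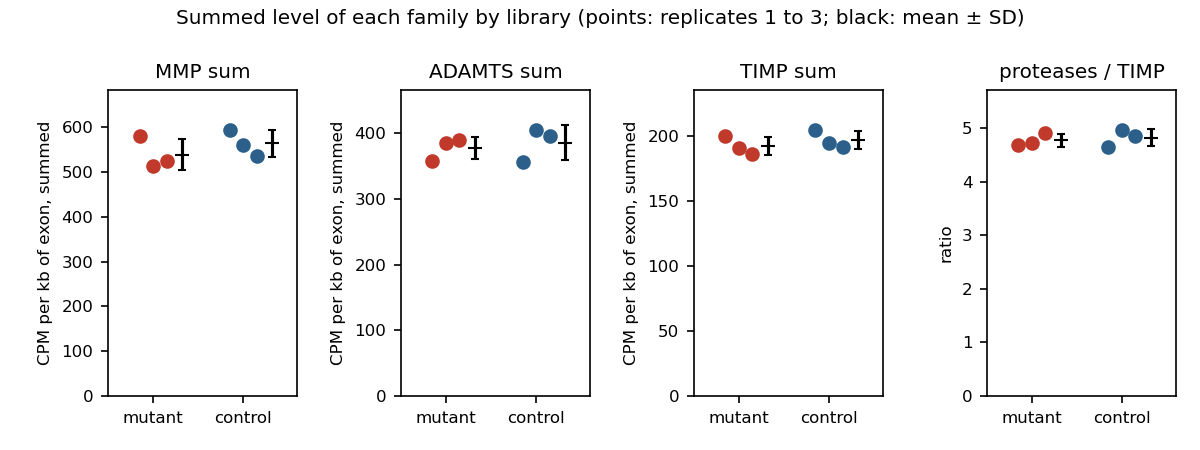
Summed level of each family in CPM per kb of exon, and the ratio of the MMP plus ADAMTS sum to the TIMP sum, by library, mutant left of control, with mean ± SD in black and axes from 0. In all 4 panels the ranges of the groups overlap, and the ADAMTS sums and the ratio include Adamts15.

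Genes that act with these families were described from lists, whose members were chosen by known role. Of 12 tested substrates of ADAMTS and related enzymes 3 fell and 1 rose, against 9.13% lower and 8.63% higher over all genes. Acan, the cartilage proteoglycan aggrecan, had 26.8, 13.9 and 19.2 CPM in mutant libraries, against 61.7, 49.8 and 43.5 CPM in control libraries. Every mutant library was lower (-1.37, interval -2.01 to -0.74, edgeR adjusted p = 0.0197), and the call was lost without mutant replicate 3 (0.100) or control replicate 2 (0.0538) and with no filter (0.0531). Vcan, the proteoglycan versican, had 964, 865 and 971 CPM in mutant libraries, against 1300, 1114 and 1187 CPM in control libraries. It too was lower throughout (-0.36, edgeR adjusted p = 0.0166), a call lost without mutant replicate 2 (0.0573). Col2a1, a cartilage collagen, fell by 0.88 and Reln, an extracellular protein that ADAMTS enzymes cut, rose by 0.47 on the log2 scale. Both lost their calls when several libraries were left out one at a time (largest edgeR adjusted p 0.153 for Col2a1 and 0.146 for Reln). On all 6 libraries Col2a1 also lost its call with limma-voom (0.0686) and upper quartile scaling (0.0513), and Reln with the replicate block (0.061). Col3a1, the most abundant gene of the list, had a log2 fold change of -0.12 and was not called.

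Of 17 tested inhibitors and clearance receptors 1 fell and none rose. For this and each further list, the share over all tested genes was 9.13% lower and 8.63% higher. Spock1, a matrix proteoglycan that inhibits the activation of Mmp2, had 8.39, 7.41 and 9.40 CPM in mutant libraries, against 13.3, 13.8 and 13.1 CPM in control libraries. The groups did not overlap (-0.67, interval -0.95 to -0.39, edgeR adjusted p = 0.0056), and the call held in all 15 alternatives. Lrp1, the endocytic receptor that clears several proteases and TIMP complexes, was the most abundant of the list at 1511, 1498 and 1440 CPM in mutant libraries and 1942, 1661 and 1534 CPM in control libraries (-0.21, edgeR adjusted p = 0.161). Of 25 tested partner proteases 2 rose and 1 fell. Furin, which activates membrane MMPs and ADAMTS precursors, rose by 0.28, the lysosomal protease gene Ctsl rose by 0.33, and Adam8 fell by 0.72 on the log2 scale. These 3 calls were lost when some libraries were left out (largest edgeR adjusted p 0.054 for Furin, 0.0665 for Ctsl and 0.111 for Adam8), and that of Adam8 also by DESeq2 (0.0567) and limma-voom (0.0511). The list's most abundant gene, Bmp1, which removes the carboxy-terminal propeptide of procollagens, was not called (-0.08). Of 9 ADAMTS-like and fibrillin genes 1 fell, Adamtsl5, by 0.38 on the log2 scale, a call lost when mutant replicate 2 or 3 or else control replicate 1 or 2 was left out (largest edgeR adjusted p 0.103). Fbn1, a fibrillin gene and the most abundant of that list, was not called (-0.15).

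The list of AP-1, ETS and NF-kB pathway genes, regulators known to act on MMP promoters, held 3 of 14 genes higher and 2 lower. Over all tested genes 8.63% were higher and 9.13% lower. The called genes were AP-1 or ETS factors, and Nfkb1, Rela and Nfkbia were not called. Jund had 653, 626 and 768 CPM in mutant libraries, against 328, 463 and 362 CPM in control libraries. Its groups were well separated (0.83, interval 0.54 to 1.12, edgeR adjusted p = 0.003). Jun had 2425, 2238 and 2668 CPM in mutant libraries, against 1306, 1847 and 1761 CPM in control libraries (0.58, interval 0.30 to 0.86, edgeR adjusted p = 0.0118). Both calls held in all 15 alternatives. Fosl2 fell by 0.53 and Ets2 by 0.33 on the log2 scale, while Etv5 rose by 0.33. Their calls were lost without control replicate 3 for Fosl2 (0.0522), without mutant replicate 3 (0.0576) or control replicate 2 (0.053) for Ets2, and without mutant replicate 2 or any 1 control library for Etv5 (0.0534 to 0.119). The immediate-early genes also respond to tissue digestion. The 10 dissociation stress genes, Jun among them, summed to 10289 to 11757 CPM in mutant libraries and 5579 to 9114 CPM in control libraries. Control replicate 1 held the lowest sum, and control replicates 2 and 3 had 9114 and 8938 CPM. Of the 10 genes 1 was higher, Jun, and 2 were lower, the heat shock genes Hspa1a (-1.86) and Hspa1b (-2.40). Fos, Fosb, Junb, Egr1, Ier2, Atf3 and Dusp1 had positive log2 fold changes and were not called. The part of dissociation in these results was not tested.

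The receptor gene that carries the mutant allele had 369, 345 and 359 CPM in mutant libraries, against 857, 820 and 856 CPM in control libraries (Pdgfra, log2 fold change -1.24, edgeR adjusted p = 2.75e-06). Pdgfrb (-0.06, edgeR adjusted p = 0.641) and Nes (0.18, 0.280) were not called. Markers of other cells moved with genotype, beside 8.63% of all tested genes higher and 9.13% lower. Of 11 skeletal muscle markers 8 rose, with sums of 218 to 323 CPM in mutant libraries and 98.2 to 116 CPM in control libraries. Of 12 endothelial markers 6 rose (293 to 413 CPM in mutant and 187 to 216 CPM in control libraries), and of 11 keratinocyte markers 6 rose (1071 to 1341 CPM in mutant and 606 to 921 CPM in control libraries). Muscle markers that rose numbered 5 without mutant replicate 2, and keratinocyte markers that rose numbered 2 without mutant replicate 1 and 1 without mutant replicate 3 or control replicate 3. Of 6 tested mast cell markers 4 rose and 1 fell (113 to 134 CPM in mutant and 84.6 to 103 CPM in control libraries), and of 9 Schwann cell markers 1 fell (166 to 208 CPM in mutant and 215 to 250 CPM in control libraries). No marker of these lists was at 0 in all 6 libraries. Adipocyte markers were spread widely, with 626 CPM in mutant replicate 2 and 301 and 279 CPM in mutant replicates 1 and 3, against 185 to 276 CPM in control libraries. Of 8 tested adipocyte markers 1 rose and none fell. It was Fabp4, the most abundant, at 196, 285 and 213 CPM in mutant libraries, against 112, 116 and 157 CPM in control libraries (0.84, edgeR adjusted p = 0.0243). Fibroblast markers, Pdgfra among them, summed to 57252 to 71005 CPM in mutant libraries and 69721 to 77721 CPM in control libraries, and pericyte markers to 1606 to 2128 CPM in mutant libraries and 1879 to 2434 CPM in control libraries. Of 15 pericyte markers 2 were called higher, Kcnj8 by 1.47 and Abcc9 by 0.85 on the log2 scale, and none was called lower. The median log2 fold change of that list was -0.06. Without a call, Myh11 (-0.69) and Tagln (-0.47) were lower in every mutant library and Notch3 (0.33) was higher in every mutant library. Rgs5 (-0.72) and Acta2 (-0.44) had overlapping groups and were not called. Of 11 fibroblast markers 1 rose and 2 fell, Pdgfra among them. Of 7 dermal papilla markers 2 fell and none rose, while their sum was 413 to 423 CPM in mutant libraries and 341 to 411 CPM in control libraries. All 15 pericyte markers passed the filter on low counts, as did 8 of 9 adipocyte markers. The part of these cells in the results on MMP, ADAMTS and TIMP genes was not tested.

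Called members that share exon bases with a gene on the opposite strand in the annotation include Adamts7 and Adamts9. The overlap was 122 bases for Adamts7 with Tbc1d2b and 1381 bases for Adamts9 with A730049H05Rik. Mmp11, Mmp19, Mmp24, Mmp28, Timp3 and Timp4 have such partners as well. Whether counting used strand was not given in the sources used here, and reads from these stretches could not be assigned to one gene. Mmp16, Mmp17 and Adamts17, the 3 members called in every alternative, have no such overlap.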

How the data were processed

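The authors deposited whole-number read counts per gene, 1 file for each of 6 libraries. The submitters' processing notes name build mm9 and, with no role or order, cutadapt 1.1, HTSeq 0.5.3, TopHat2 2.0.4, FastQC and DESeq2. Whether counting used strand was not given in the sources used here. In each file 5 rows that name no gene took 36.9% to 41.7% of the reads and were left out. Gene counts per library then ran from 11912469 to 18792939. Per the labels' protocols, each genotype had 3 mice.

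Counts were scaled by TMM, filtered by filterByExpr (minimum count 10, minimum total 15) and tested by the robust quasi-likelihood F test of edgeR 4.0.16 in R 4.3.3 across all 15035 genes, with Benjamini-Hochberg adjustment and no covariate. Genes were called at an adjusted p under 0.05. Intervals are at the 95% level. The code was tested on simulated data. Levels per kb used merged GENCODE M21 exons, a later build than mm9. Gene order, distances between members and exon overlaps were also read from that annotation, and promoter windows carry RefSeq coordinates. DESeq2 1.42.0, limma 3.58.1 (voom), other scalings and filters, a replicate block and each library left out were alternatives. Named genes were Pdgfra, Pdgfrb, Nes, every called member, every TIMP, the 6 MMP and 8 ADAMTS genes of highest CPM, tested members with an absolute log2 fold change of at least 0.5, undetected members, and from each pathway list its called genes (at most 5) and most abundant gene. Mmp3, Mmp15, Mmp25, Mmp28, Adamts6, Adamts16, Adamts18, Adamts19 and Adamts20 lie outside that rule and are given to account for every member. 1 overlap between a member and a neighbouring gene is not reported here. Members, lists and rules were chosen with earlier results of these data known.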

Additional observations from a re-analysis of the deposited data

How the results depend on the processing

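Mmp16, Mmp17, Adamts17, Spock1, Jun and Jund kept direction and call in all 15 alternatives, and so did Pdgfra. The family sums moved by less than their spread. With 1 library left out, genes called over the whole table numbered 658 to 1199 higher and 753 to 1500 lower, and members 0 to 2 higher and 4 to 10 lower. The same range was 0 to 0 for MMP genes higher, 0 to 2 for ADAMTS genes higher, 2 to 7 for ADAMTS genes lower and 0 to 1 for TIMP genes higher. Among pathway lists it was 0 to 3 higher and 0 to 1 lower for partner proteases, 0 to 1 higher for inhibitors, 0 to 2 higher and 0 to 1 lower for ADAMTS-like genes, 0 to 1 higher and 1 to 4 lower for substrates, and 1 to 4 lower for AP-1, ETS and NF-kB genes. With library totals only, members higher numbered 1. MMP genes higher numbered 0 with library totals only, DESeq2, limma-voom, no robust fitting or the replicate block, and ADAMTS genes higher numbered 2 with the last 4 of these. With no filter, partner proteases numbered 4 higher and 2 lower, inhibitors 2 lower, ADAMTS-like genes 2 higher and 2 lower, and AP-1, ETS and NF-kB genes 4 lower. Partner proteases lower numbered 0 with DESeq2 or limma-voom. ADAMTS-like genes higher numbered 1 with upper quartile scaling. The cause of these moves was not tested.

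Directions that turned belonged to genes near 0. With upper quartile scaling Mmp2 had 0.0203 and Adamts1 0.0084. With 1 library left out, the log2 fold change lay between -0.0767 (mutant replicate 1) and 0.0402 (control replicate 1) for Mmp2, between -0.149 (control replicate 1) and 0.0592 (control replicate 2) for Adamts1, and between -0.212 (mutant replicate 3) and 0.282 (control replicate 2) for Mmp3. It lay between -0.0126 (control replicate 3) and 0.296 (control replicate 1) for Mmp28, between -0.0097 (control replicate 2) and 0.174 (control replicate 1) for Mmp11, between -0.147 (control replicate 1) and 0.00086 (mutant replicate 1) for Adamts5, and between -0.102 (control replicate 2) and 0.0037 (control replicate 1) for Pdgfrb.

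The correlations of deviations between same-numbered libraries were 0.117, -0.029 and -0.087, and those between unlike numbers lay between -0.101 and 0.158. With 3 libraries per group these values cannot show whether the libraries were paired. With the replicate block 1328 genes were higher and 1439 lower, inhibitors numbered 1 higher, ADAMTS-like genes 1 higher and substrates 0 higher. Under it Adamts12 (edgeR adjusted p = 0.0302) and Adamts20 (0.033) were called, and Mmp9 (0.0511) and Adamts3 (0.0576) were not. Not every library correlated best with its own number. Depth limits the 9 untested members and Mmp9, whose counts were 8 to 35.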
